A study of Mus musculus with 16 samples.

Results

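Messenger RNA of 34 mouse genes that build, shape or regulate actin filaments was followed in LKR10 cells, which derive from an adenocarcinoma of the mouse lung. The genes were taken as a fixed list of symbols, and all 34 were found among the 12321 genes of the expression table and all passed the filter on low values, with 12320 genes tested in all. By role, 13 are contractile and crosslinking genes, 10 are Arp2/3 and filament turnover genes, 2 are cytoplasmic actins, 5 are SRF itself with focal adhesion genes, and 4 are membrane linkers and a scaffold. The 4 groups of 4 libraries were 3D shAnkrd35, 3D shGFP, 2D shAnkrd35 and 2D shGFP. In 3D the cells grew in 0.5% methylcellulose, a viscous medium in which cells do not attach to a surface, and in 2D they grew attached as a monolayer. All groups carried a lentiviral short hairpin, either against Ankrd35 or, as the control, against GFP, and all were kept under 4 µg/ml puromycin for 48 h, followed by 96 h of growth. Every group therefore shares lentiviral infection and drug selection, a single cell line stands for each condition, and the labels do not say how many hairpins were used against Ankrd35. RNA was enriched with oligo(dT) beads before sequencing.

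Actin monomers assemble into filaments that myosin II pulls on, that alpha-actinins and filamins crosslink, and that tropomyosins and calponins coat. The Arp2/3 complex starts new branches on existing filaments, and cofilin, profilin and capping protein set how fast filaments turn over. Free actin monomers hold the coactivators MRTF-A and MRTF-B in the cytoplasm, and when monomers are used up by polymerisation the coactivators enter the nucleus and act with serum response factor (SRF) at DNA elements called CArG boxes, many of which lie near genes of the cytoskeleton itself. In attached cells, stress fibres that end at focal adhesions are a known setting in which this circuit is active.

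The libraries held 13.82 M to 28.72 M reads assigned to genes, and the lowest read count of any of the 34 genes in any library was 36. Ankrd35 itself was scarce, with 12, 11, 9 and 9 reads in the 3D shAnkrd35 libraries against 14, 17, 16 and 16 in the 3D shGFP libraries. In 2D it had 2, 6, 7 and 1 reads in the shAnkrd35 libraries against 2, 3, 6 and 7 in the shGFP libraries. Tested on CPM, which allows for library size, the means were 0.501 in 3D shAnkrd35 and 0.597 in 3D shGFP (two-sided exact permutation p = 0.143). The means in 2D were 0.187 CPM with shAnkrd35 and 0.219 CPM with shGFP (two-sided exact permutation p = 0.657). The hairpin directions below therefore rest on the labels. Nothing in the labels marks the 4 libraries of a group as separate cultures, and the p-values cover the spread between libraries alone, whose source may be technical. Of the epithelial markers Krt8, Krt18, Krt19, Cdh1 and Epcam were among the genes analysed, and Cldn4 was not. The summed level of those present was 6600 to 7180 CPM in 3D shAnkrd35, 5990 to 6180 CPM in 3D shGFP, 7030 to 8550 CPM in 2D shAnkrd35 and 5260 to 5760 CPM in 2D shGFP. Group means were 3000 to 4140 CPM for Krt8 and 1760 to 2840 CPM for Krt18, but only 0.406 to 2.58 CPM for Epcam. Of 5 lung epithelial markers only Foxa2 was among the genes analysed, at means of 10.2 to 14.1 CPM, and the defining markers Nkx2-1, Sftpc, Sftpb and Scgb1a1 were not. In 2D shAnkrd35, replicate 1 lay away from the other 3 libraries, with the lowest Tpm1, Myl12a, Myl6 and Pfn1 and the highest Myh9, Actb, Tln1 and Iqgap1. The fold changes of all genes also followed the GC content of the transcript, with a Spearman rank correlation across 12217 genes of -0.475 for 3D over 2D with shAnkrd35, -0.343 for 3D over 2D with shGFP, 0.217 for shAnkrd35 over shGFP in 3D and 0.396 in 2D. Genes are not independent replicates, so these values are descriptions.

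CArG boxes, the elements at which SRF acts, were sought near the start sites of these genes. The list was drawn up as actin cytoskeleton and SRF target genes, so its share of boxes is no independent test of a link to SRF. Binding of SRF was not measured. RefSeq promoters of the GRCm38.p6 build were tabled for 32 of the 34 genes, Actb and Tgfb1i1 being the other two, and each was searched from 250 bases upstream to 50 bases downstream of the start for the CArG box, whose consensus reads the same class of letters on both strands. A gene was counted if any of its tabled promoters held a match. A full match was found for 6 of the 32 genes (18.8%), against 488 of all 27025 genes with a tabled promoter (1.81%). Among genes of the expression table with a tabled promoter it was 138 of 9309 (1.48%). The 6 genes were Srf, Actg1, Cnn2, Myl6, Vcl and Arpc4. Windows of 50 bases around these matches are shown 5′ to 3′ on the gene's strand, with the matches in capitals, to show the element shared by genes of different roles. They are Srf (chr17:46556205-46556254, minus strand), Actg1 (chr11:120348556-120348605, minus), Cnn2 (chr10:79988524-79988573, plus), Myl6 (chr10:128493030-128493079, minus), Vcl (chr14:20929151-20929200, plus) and Arpc4 (chr6:113377863-113377912, plus).
Srf: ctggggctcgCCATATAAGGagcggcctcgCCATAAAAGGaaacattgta
Actg1: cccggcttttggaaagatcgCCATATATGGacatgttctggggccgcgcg
Cnn2: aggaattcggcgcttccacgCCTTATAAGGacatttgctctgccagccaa
Myl6: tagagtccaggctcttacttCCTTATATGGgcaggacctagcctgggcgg
Vcl: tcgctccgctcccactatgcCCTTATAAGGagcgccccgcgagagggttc
Arpc4: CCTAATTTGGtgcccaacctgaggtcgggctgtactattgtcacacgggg

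Srf carried both of its matches in the window, at 82 to 73 and 62 to 53 bases upstream of the start. The match lay 90 to 81 bases upstream in Actg1, 56 to 47 in Cnn2, 50 to 41 in Myl6, 227 to 218 in Vcl and 250 to 241 in Arpc4. Acta2, the smooth muscle actin gene whose CArG elements are known to depart from the consensus, had no full match but a pair that differ from it at 1 position, 84 to 75 and 34 to 25 bases upstream (chr19:34255428-34255477 and chr19:34255378-34255427, minus strand). Matches with 1 difference were counted where the stretch between CC and GG held 1 G or C, a form chosen after values were seen. They were found for 5 of the 32 genes (15.6%), all without a full match. They were found for 9.69% of all genes with a tabled promoter, a share that includes genes with a full match as well. The 2 windows of Acta2 are shown because no other gene of the list changed as much.
Acta2, distal: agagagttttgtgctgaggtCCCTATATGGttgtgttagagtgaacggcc
Acta2, proximal: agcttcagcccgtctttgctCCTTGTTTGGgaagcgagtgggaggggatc

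In 3D all 20 contractile, actin, SRF and focal adhesion transcripts were lower than in 2D with shAnkrd35, and 16 of the 20 were with shGFP, while the Arp2/3 and turnover genes were split. The change was 12-fold in Acta2 and 5.39-fold in Cnn2 with shAnkrd35, and 6.52-fold and 3.77-fold with shGFP. With shAnkrd35, 26 of the 34 genes were lower in 3D at an adjusted p under 0.05 and 4 were higher, where 36.0% of all genes were lower, 34.4% higher and 70.4% called either way. With shGFP, 20 of the 34 were lower in 3D and 5 were higher, where 32.1% of all genes were lower, 35.2% higher and 67.2% called either way. The 3D and 2D libraries did not overlap in 27 of the 34 genes with shAnkrd35, 24 of them lower and 3 higher, where 29.3% of all genes were apart and lower, 29.9% apart and higher and 59.2% apart either way. With shGFP they did not overlap in 23 genes, 19 of them lower and 4 higher, where the shares of all genes were 31.6% lower, 33.3% higher and 64.9% either way. The median log2 fold change of the 34 genes was -0.42 with shAnkrd35, where that of all genes was -0.02, and -0.21 with shGFP, where that of all genes was 0.03. Together the 34 genes took 2.03% ± 0.0424 of all reads in 3D shAnkrd35 and 2.04% ± 0.0173 in 3D shGFP, against 2.54% ± 0.126 in 2D shAnkrd35 and 2.57% ± 0.106 in 2D shGFP (mean ± SD, n = 4 each).

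**Figure D1:**
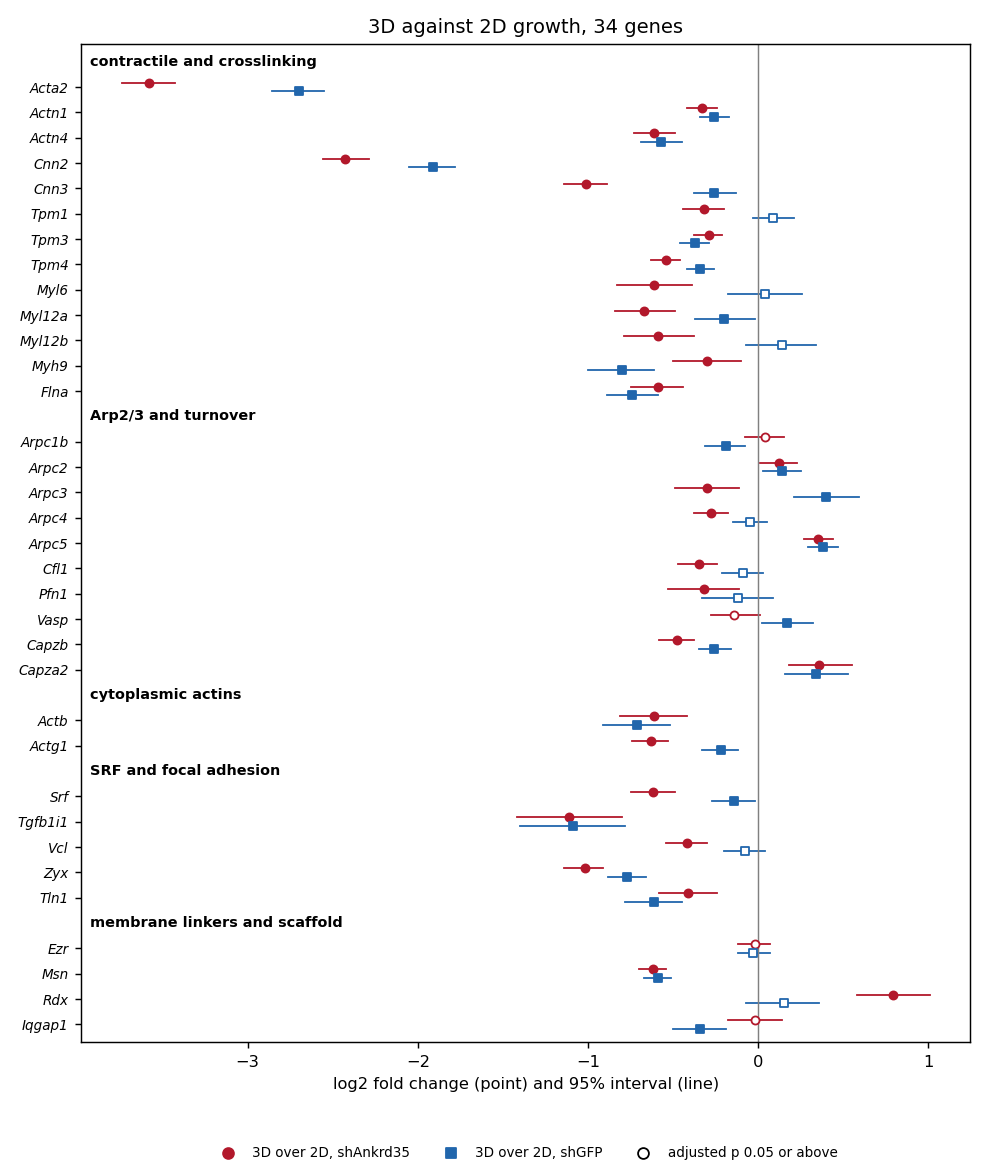
Log2 fold change of each of the 34 genes in 3D over 2D, with shAnkrd35 (circles) and with shGFP (squares). Lines are 95% intervals from limma, open symbols have an adjusted p of 0.05 or above, and genes are grouped by role. All 13 contractile and crosslinking genes lie left of 0 with shAnkrd35, and Acta2 and Cnn2 lie farthest left with both hairpins.

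All 13 contractile and crosslinking genes fell in 3D with shAnkrd35 (median log2 fold change -0.59), and 10 of 13 fell with shGFP (median -0.34), with none higher in either comparison. The 3 that did not pass with shGFP were Tpm1, a tropomyosin (0.09, SE 0.06), Myl6, the essential light chain of non-muscle myosin (0.04, SE 0.11), and Myl12b, a regulatory light chain (0.14, SE 0.10). In the Arp2/3 and turnover group, 3 of 10 genes rose and 5 fell in 3D with shAnkrd35 (median -0.21), and 5 rose and 2 fell with shGFP (median 0.04). No test compares the 2 groups of genes as such, since their members were chosen with results known. Without replicate 1 of 2D shAnkrd35 the counts with shAnkrd35 were 13 of 13 contractile genes lower, and 2 higher and 6 lower among the Arp2/3 and turnover genes. With shGFP the same fit called 10 contractile genes lower and 2 higher. With the trend with length and GC removed, the Arp2/3 and turnover genes with shGFP were 3 higher and 4 lower (median -0.03), so that balance turned. In that setting 10 contractile genes fell with shGFP and 1 rose, Tpm1 (0.15, adjusted p = 0.0431). With plain library totals in place of the authors' effective library sizes, which raises the median of all genes by 0.119 with shGFP and by 0.0865 with shAnkrd35, 8 contractile genes fell and 2 rose with shGFP, and all 13 still fell with shAnkrd35.

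**Figure D2:**
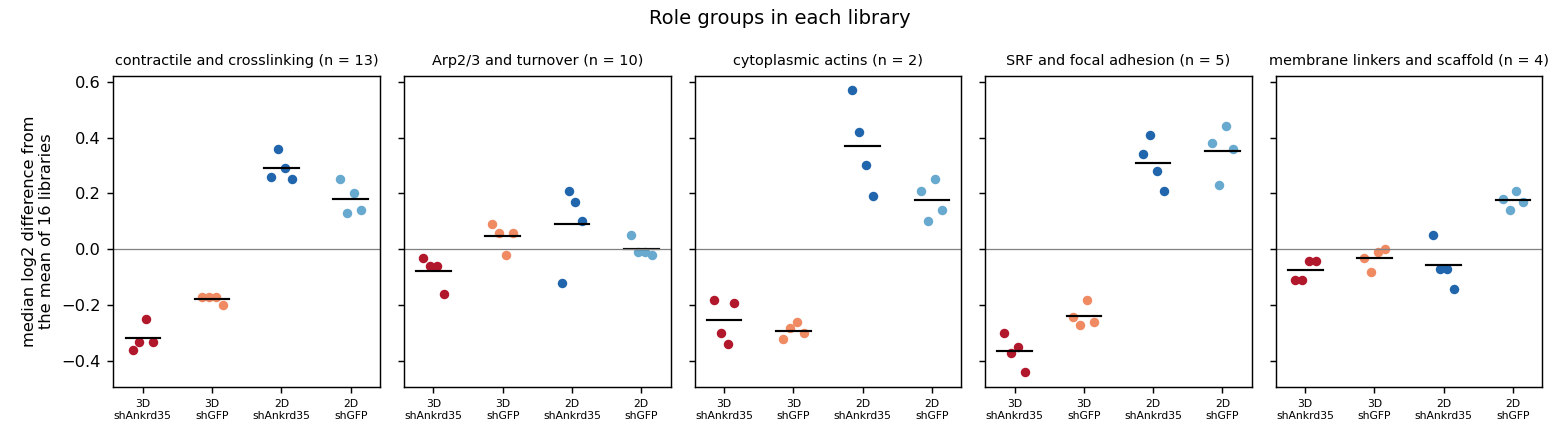
Median over each role group of the log2 difference of a gene from its mean over the 16 libraries, 1 point per library, with the group mean as a line. The contractile and crosslinking medians lie between -0.36 and -0.17 in 3D libraries and between 0.13 and 0.36 in 2D libraries, while the Arp2/3 and turnover medians lie between -0.16 and 0.09 in 3D and between -0.12 and 0.21 in 2D.

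Acta2 (mm10 chromosome 19, 34241090 to 34255590, minus strand) encodes smooth muscle alpha-actin, which is known for its place in contractile stress fibres. It stood at 9.21, 10.2, 9.82 and 8.83 CPM in the 3D shAnkrd35 libraries and at 9.45, 9.51, 10.9 and 10.9 CPM in the 3D shGFP libraries. On monolayers it stood at 102, 125, 121 and 113 CPM with shAnkrd35 and at 72.0, 66.1, 65.2 and 63.6 CPM with shGFP. All 8 values in 3D lie far below all 8 in 2D, and the hairpins part in 2D but overlap in 3D. The log2 fold change in 3D was -3.58 (SE 0.07, adjusted p = 6.22e-16) with shAnkrd35 and -2.70 (SE 0.07, adjusted p = 7.32e-15) with shGFP. Per kilobase of exon, Acta2 made up 0.442% ± 0.0545 of the summed level of the 3 actin genes in 3D shAnkrd35 and 0.490% ± 0.0356 in 3D shGFP, against 3.39% ± 0.579 in 2D shAnkrd35 and 2.16% ± 0.141 in 2D shGFP (mean ± SD, n = 4 each). Its coding sequence is 83.3% identical to that of Actb, and a split of shared reads between actin genes was not tested. Acta2 is also a smooth muscle marker, and of 8 other genes listed for that cell type only Des and Smtn were among the genes analysed, while the defining markers Myh11, Tagln and Cnn1 were not. Their summed level was 43.7 to 49.7 CPM in 3D shAnkrd35, 53.3 to 60.8 CPM in 3D shGFP, 64.0 to 79.8 CPM in 2D shAnkrd35 and 69.6 to 74.2 CPM in 2D shGFP, and their part in the Acta2 result was not tested. Of 8 fibroblast markers 5 were among the genes analysed, with a summed level of 12.6 to 48.2 CPM in 3D shAnkrd35, 25.3 to 29.0 CPM in 3D shGFP, 20.8 to 21.9 CPM in 2D shAnkrd35 and 31.8 to 34.6 CPM in 2D shGFP. Of these, Col1a1 averaged 7.99 CPM in 3D shAnkrd35, 2.52 CPM in 3D shGFP, 3.22 CPM in 2D shAnkrd35 and 4.87 CPM in 2D shGFP, and Col1a2, Col3a1 and Pdgfra were likewise lower in 3D than in 2D with shGFP. Pdgfrb, the most abundant of them in both shGFP groups, went the other way, with 19.4 CPM in 3D shGFP against 16.7 CPM in 2D shGFP. It averaged 7.31 CPM in 3D shAnkrd35 and 9.19 CPM in 2D shAnkrd35. The part of fibroblast markers in the Acta2 result was not tested either. In bulk RNA, fewer cells of a type and less RNA per cell cannot be told apart.

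Cnn2 (chromosome 10, 79988584 to 79996062, plus strand) encodes calponin 2, an actin-binding protein that binds along filaments and dampens myosin's activity. Its levels were 56.1, 50.3, 47.4 and 54.4 CPM in 3D shAnkrd35 and 72.2, 72.2, 78.1 and 73.9 CPM in 3D shGFP. Its monolayer levels were 310, 295, 268 and 251 CPM with shAnkrd35 and 287, 270, 285 and 275 CPM with shGFP. All 3D libraries lie far below all 2D libraries, and the hairpins part in 3D but overlap in 2D. The log2 fold change in 3D was -2.43 (SE 0.06, adjusted p = 9.98e-15) with shAnkrd35 and -1.91 (SE 0.06, adjusted p = 1.13e-13) with shGFP.

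Cnn3, which encodes calponin 3, was far less abundant and moved less. It had 23.8, 21.9, 21.6 and 24.2 CPM in 3D shAnkrd35 and 30.9, 27.5, 29.1 and 30.6 CPM in 3D shGFP. Its 2D values were 45.5, 45.1, 49.1 and 45.1 CPM with shAnkrd35 and 38.2, 34.5, 35.7 and 32.9 CPM with shGFP. The 4 groups do not overlap, with 3D shAnkrd35 lowest and 2D shAnkrd35 highest. The fall in 3D was 2.02-fold with shAnkrd35 (adjusted p = 2.86e-10) and 1.2-fold with shGFP (adjusted p = 0.00111), the second of which had an adjusted p of 0.0529 with plain library totals.

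Myh9 (chromosome 15, 77760587 to 77842175, minus strand) encodes the heavy chain of non-muscle myosin IIA, the motor of stress fibres. It had 4419, 3795, 4191 and 4408 CPM in 3D shAnkrd35 and 3686, 3463, 3731 and 3587 CPM in 3D shGFP. In 2D it had 6591, 5056, 4633 and 4627 CPM with shAnkrd35 and 6127, 5871, 7051 and 6215 CPM with shGFP. Each hairpin's 3D libraries lie below its 2D libraries, by more with shGFP, and replicate 1 of 2D shAnkrd35 lies among the shGFP libraries. The log2 fold change in 3D was -0.30 (SE 0.09, adjusted p = 0.00832) with shAnkrd35 and -0.80 (SE 0.09, adjusted p = 1.06e-06) with shGFP. Flna, which encodes the crosslinker filamin A, fell 1.51-fold and 1.67-fold in the same order, and the alpha-actinin genes Actn4 and Actn1 fell 1.52-fold and 1.26-fold with shAnkrd35 and 1.49-fold and 1.2-fold with shGFP.

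The tropomyosin genes encode the rods that lie along filaments and govern which motors and binding proteins reach them. Tpm4 fell 1.46-fold in 3D with shAnkrd35 and 1.26-fold with shGFP, and Tpm3 fell 1.22-fold and 1.29-fold. Tpm1 held 704, 722, 736 and 680 CPM in 3D shAnkrd35 and 958, 983, 924 and 951 CPM in 3D shGFP. Its monolayer values were 770, 940, 941 and 917 CPM with shAnkrd35 and 939, 902, 870 and 884 CPM with shGFP. The 3D shAnkrd35 libraries stand below the other 3 groups, which overlap one another. Myl12b had 161, 167, 192 and 155 CPM in 3D shAnkrd35 and 228, 232, 216 and 220 CPM in 3D shGFP, and 194, 280, 281 and 266 CPM in 2D shAnkrd35 and 219, 202, 192 and 202 CPM in 2D shGFP. Its 3D shAnkrd35 libraries are likewise the lowest apart from replicate 3, which meets the lowest 2D shGFP library, and the drop against 2D was 1.5-fold (adjusted p = 5.31e-05). The light chain genes Myl6 and Myl12a fell 1.52-fold and 1.59-fold in 3D with shAnkrd35, and Myl12a fell 1.15-fold with shGFP, a call that was lost on leaving out any 3D shGFP library (adjusted p 0.0414 with all libraries). Myl12a and Myl12b are 96.5% identical in coding sequence and share 462 exonic bases, so the division of reads between them is uncertain.

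**Figure D3:**
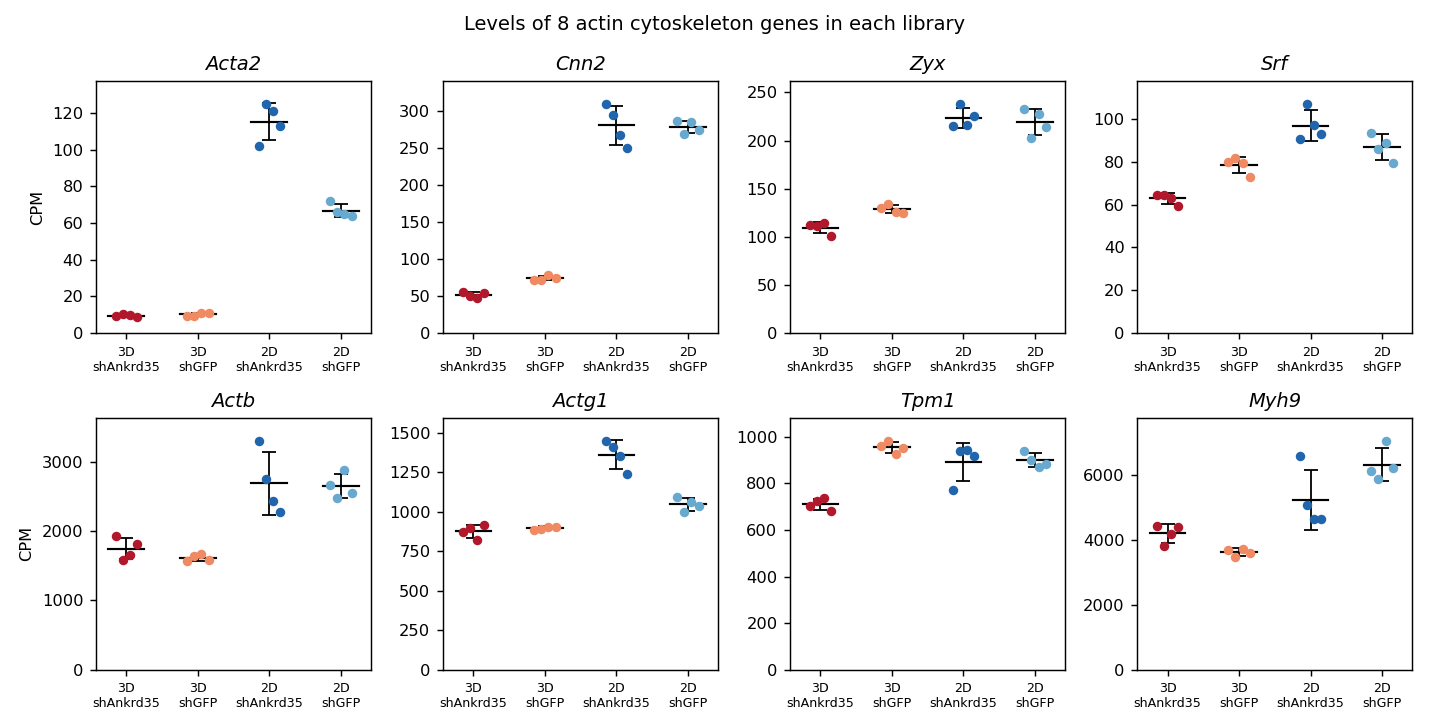
Levels of 8 genes in CPM in each library, with the group mean and SD (n = 4). Acta2 is at 8.83 to 10.9 CPM in all 8 libraries in 3D and reaches 63.6 to 125 CPM in 2D, Cnn2 and Zyx also separate 3D from 2D, and Tpm1 is set apart in 3D shAnkrd35 alone.

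The cytoplasmic actins Actb and Actg1, which supply most of the monomer pool, both fell in 3D with either hairpin. Actb had 1927, 1589, 1650 and 1813 CPM in 3D shAnkrd35 and 1569, 1643, 1671 and 1582 CPM in 3D shGFP. In 2D Actb had 3305, 2749, 2429 and 2275 CPM with shAnkrd35 and 2672, 2484, 2886 and 2551 CPM with shGFP. Growth type separates these libraries and the hairpin does not, and the fall was 1.53-fold with shAnkrd35 (adjusted p = 1.91e-05) and 1.64-fold with shGFP (adjusted p = 4.06e-06). Actg1 had 875, 895, 823 and 918 CPM in 3D shAnkrd35 and 883, 890, 906 and 907 CPM in 3D shGFP. In 2D Actg1 had 1451, 1409, 1353 and 1238 CPM with shAnkrd35 and 1093, 999, 1062 and 1034 CPM with shGFP. The 2D shAnkrd35 libraries are the highest, and the 3D groups overlap. The fall of Actg1 was 1.55-fold with shAnkrd35 (adjusted p = 1.20e-08) and 1.17-fold with shGFP (adjusted p = 0.000864), the smaller of which had an adjusted p of 0.0544 with plain library totals. Reads of Actb over those of Actg1 came to 1.99 ± 0.175 in 3D shAnkrd35 libraries and 1.80 ± 0.0503 in 3D shGFP libraries, against 1.97 ± 0.218 in 2D shAnkrd35 and 2.53 ± 0.127 in 2D shGFP (mean ± SD, n = 4 each). The coding sequences of this pair are 88.6% identical. Per kilobase, Actb had the highest mean level of the 34 genes in every group, at 651 CPM in 3D shAnkrd35, 603 CPM in 3D shGFP, 1000 CPM in 2D shAnkrd35 and 988 CPM in 2D shGFP.

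All 5 genes of the SRF and focal adhesion group fell in 3D with shAnkrd35 (median -0.62) and 4 of 5 with shGFP (median -0.61). Srf (chromosome 17, 46548329 to 46556175, minus strand) encodes the transcription factor itself. It had 64.7, 64.6, 63.1 and 59.1 CPM in 3D shAnkrd35 and 80.1, 81.8, 79.2 and 73.0 CPM in 3D shGFP. On monolayers its values were 90.5, 107, 97.1 and 92.9 CPM with shAnkrd35 and 93.4, 86.1, 88.7 and 79.2 CPM with shGFP. The 3D shAnkrd35 libraries are the lowest without overlap, while the 3D and 2D libraries with shGFP overlap. The log2 fold change in 3D was -0.62 (SE 0.06, adjusted p = 1.34e-07) with shAnkrd35. It was -0.14 (SE 0.06, adjusted p = 0.0427) with shGFP, a call lost in 13 of 27 alternatives, in which the value ran up to 0.10 once the trend with length and GC was removed. The exons of Srf are 64.4% GC.

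Zyx (chromosome 6, 42349630 to 42360213, plus strand) encodes zyxin, an adaptor of focal adhesions and stress fibres. It had 112, 111, 114 and 101 CPM in 3D shAnkrd35 and 130, 134, 126 and 125 CPM in 3D shGFP, against 215, 238, 216 and 225 CPM in 2D shAnkrd35 and 233, 203, 228 and 214 CPM in 2D shGFP. All 3D libraries lie well below all 2D libraries, with a fall of 2.03-fold with shAnkrd35 (adjusted p = 5.17e-11) and 1.71-fold with shGFP (adjusted p = 1.30e-09). Tgfb1i1, which encodes the adhesion adaptor Hic-5, was the scarcest of the 34 genes per kilobase. Its levels were 2.73, 2.11, 2.53 and 1.87 CPM in 3D shAnkrd35 and 2.73, 2.57, 1.97 and 1.92 CPM in 3D shGFP, against 4.14, 5.52, 5.21 and 5.35 CPM in 2D shAnkrd35 and 5.27, 4.87, 4.62 and 4.97 CPM in 2D shGFP. The hairpins overlap in both growth types and growth type parts the libraries, with a fall of 2.15-fold with shAnkrd35 (adjusted p = 4.77e-06) and 2.13-fold with shGFP (adjusted p = 5.59e-06). Tln1, which encodes the integrin activator talin 1, fell 1.33-fold and 1.53-fold in the same order. Vcl, which encodes vinculin, fell 1.34-fold with shAnkrd35 and had a log2 fold change of -0.08 (SE 0.06) with shGFP. A share of 25.5% of the exonic bases of Vcl overlaps Ap3m1 on the opposite strand, a gene that rose in 3D by 0.98 and 0.66 on the log2 scale, and reads of the pair cannot be told apart if strand was not used in counting.

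The 6 genes with a full CArG match did not move alike in 3D. With shAnkrd35 the log2 fold changes were -2.43 in Cnn2, -0.63 in Actg1, -0.62 in Srf, -0.61 in Myl6, -0.42 in Vcl and -0.28 in Arpc4. With shGFP they were -1.91 in Cnn2, -0.22 in Actg1, -0.14 in Srf, -0.08 in Vcl, -0.05 in Arpc4 and 0.04 in Myl6. Among genes without a full match, Acta2 fell more than all 6 with both hairpins, and Zyx fell more than all of them but Cnn2.

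Among Arp2/3 subunits the response to 3D differed between genes and between hairpins. Arpc5 rose with both hairpins. It had 138, 144, 147 and 137 CPM in 3D shAnkrd35 and 182, 188, 180 and 185 CPM in 3D shGFP, against 111, 104, 113 and 116 CPM in 2D shAnkrd35 and 138, 142, 144 and 141 CPM in 2D shGFP. Within each hairpin the 3D libraries lie above the 2D libraries, and 3D shAnkrd35 overlaps 2D shGFP. The rise was 1.28-fold with shAnkrd35 (adjusted p = 9.54e-07) and 1.30-fold with shGFP (adjusted p = 3.36e-07).

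Arpc3 moved in opposite directions. It had 68.7, 64.9, 71.7 and 60.6 CPM in 3D shAnkrd35 and 74.3, 71.9, 67.1 and 73.5 CPM in 3D shGFP, against 64.1, 89.5, 93.4 and 84.1 CPM in 2D shAnkrd35 and 57.4, 54.5, 53.0 and 52.9 CPM in 2D shGFP. In 2D shAnkrd35 replicate 1 lies below the other 3 libraries and within the 3D range. The log2 fold change in 3D was -0.30 (SE 0.09, adjusted p = 0.00626) with shAnkrd35 and 0.40 (SE 0.09, adjusted p = 0.000955) with shGFP. Arpc2 had 348, 342, 344 and 311 CPM in 3D shAnkrd35 and 412, 417, 401 and 414 CPM in 3D shGFP, against 281, 325, 306 and 326 CPM in 2D shAnkrd35 and 397, 360, 381 and 358 CPM in 2D shGFP. Its rise was slight, 1.09-fold with shAnkrd35 (adjusted p = 0.0495, lost in 18 of 27 alternatives) and 1.1-fold with shGFP (adjusted p = 0.0290, and a log2 fold change of -0.01 once the length and GC trend was removed). Arpc4 fell 1.22-fold with shAnkrd35 (adjusted p = 4.83e-05, but 0.0922 once that trend was removed) and had a log2 fold change of -0.05 (SE 0.05) with shGFP. Arpc1b had log2 fold changes of 0.04 (SE 0.05) with shAnkrd35 and -0.19 (SE 0.05, adjusted p = 0.00513) with shGFP. Once the length and GC trend was removed these were 0.15 (adjusted p = 0.00908) and -0.12 (adjusted p = 0.039).

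Of the turnover genes, Capzb, the beta subunit of capping protein, fell in 3D by 1.39-fold with shAnkrd35 and 1.19-fold with shGFP. Capza2, its alpha-2 partner, went the other way. It had 230, 238, 211 and 242 CPM in 3D shAnkrd35 and 240, 247, 252 and 266 CPM in 3D shGFP, against 192, 155, 174 and 197 CPM in 2D shAnkrd35 and 166, 231, 191 and 208 CPM in 2D shGFP. The 3D libraries of each hairpin lie above its 2D libraries, by 0.36 on the log2 scale (SE 0.09, adjusted p = 0.00154) with shAnkrd35 and 0.34 (SE 0.09, adjusted p = 0.00259) with shGFP. Capza2 is 36.1% GC, and with the length and GC trend removed these values were -1.05 and -0.50, so its direction is not settled. Vasp, which encodes a filament elongation factor, had 305, 314, 315 and 280 CPM in 3D shAnkrd35 and 316, 311, 301 and 304 CPM in 3D shGFP, against 280, 358, 358 and 342 CPM in 2D shAnkrd35 and 302, 265, 269 and 262 CPM in 2D shGFP. These ranges overlap within each hairpin, and the rise with shGFP (1.12-fold, adjusted p = 0.0421) was lost in 10 alternatives. Cfl1, the filament-severing cofilin 1, and Pfn1, the monomer-binding profilin 1, fell 1.28-fold and 1.25-fold with shAnkrd35 and had log2 fold changes of -0.09 (SE 0.06) and -0.12 (SE 0.10) with shGFP. The 3D and 2D libraries of Pfn1 overlapped with shAnkrd35. With the length and GC trend removed its log2 fold change there was -0.07 (adjusted p = 0.297, against 0.00949 in the main fit).

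The membrane linkers of the ERM family, which tether filaments to the plasma membrane, parted from one another. Ezr (ezrin) was not called in any of the 5 comparisons, with log2 fold changes of -0.03 to 0.01 and 95% intervals that stayed between -0.13 and 0.14. Msn (moesin) fell in 3D by 1.54-fold with shAnkrd35 and 1.51-fold with shGFP. Rdx (radixin; chromosome 9, 52047173 to 52088735, plus strand) had 330, 340, 340 and 362 CPM in 3D shAnkrd35 and 274, 275, 275 and 290 CPM in 3D shGFP, against 247, 166, 177 and 209 CPM in 2D shAnkrd35 and 210, 275, 260 and 267 CPM in 2D shGFP. Its 3D shAnkrd35 libraries are above all others, and its rise in 3D was 1.73-fold with shAnkrd35 (adjusted p = 5.09e-06), with a log2 fold change of 0.15 (SE 0.10) with shGFP. Per kilobase, radixin made up 22.0% ± 0.936 of the 3 ERM transcripts in 3D shAnkrd35 and 18.2% ± 0.289 in 3D shGFP, against 12.1% ± 2.23 in 2D shAnkrd35 and 14.5% ± 1.79 in 2D shGFP (mean ± SD, n = 4 each). Iqgap1, a scaffold that binds filaments, Rac and Cdc42, had 895, 874, 893 and 986 CPM in 3D shAnkrd35 and 987, 929, 1012 and 985 CPM in 3D shGFP, against 1126, 869, 868 and 852 CPM in 2D shAnkrd35 and 1217, 1165, 1334 and 1254 CPM in 2D shGFP. The 2D shGFP libraries are the highest, and the fall in 3D was 1.27-fold with shGFP (adjusted p = 0.000663), against a log2 fold change of -0.02 (SE 0.07) with shAnkrd35.

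With shAnkrd35 in place of shGFP, Arpc1b was lower in both growth types and by more than any other gene of the list. Arpc5, Arpc2 and Msn were also lower in both. In Msn the 2D call was lost with the length and GC trend removed (log2 fold change -0.04, adjusted p = 0.355). In 21 of the 34 genes the hairpin effect differed between growth types. In 3D, 14 of the 34 genes were lower with shAnkrd35 and 1 was higher, where 14.6% of all genes were lower, 15.0% higher and 29.7% called either way, and the median log2 fold change was -0.11 against -0.00 for all genes. In 2D, 12 of the 34 were higher with shAnkrd35 and 8 were lower, where 29.0% of all genes were higher, 28.8% lower and 57.9% called either way, and the median was 0.03 against 0.01 for all genes. The hairpins did not overlap in 18 genes in 3D, 14 of them lower and 4 higher, where 19.4% of all genes were apart and lower, 18.8% apart and higher and 38.2% apart either way. In 2D they did not overlap in 13 genes, 8 of them higher and 5 lower, where the shares of all genes were 22.3% higher, 17.5% lower and 39.8% either way. In 2D the shares are thus near those of all genes.

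**Figure D4:**
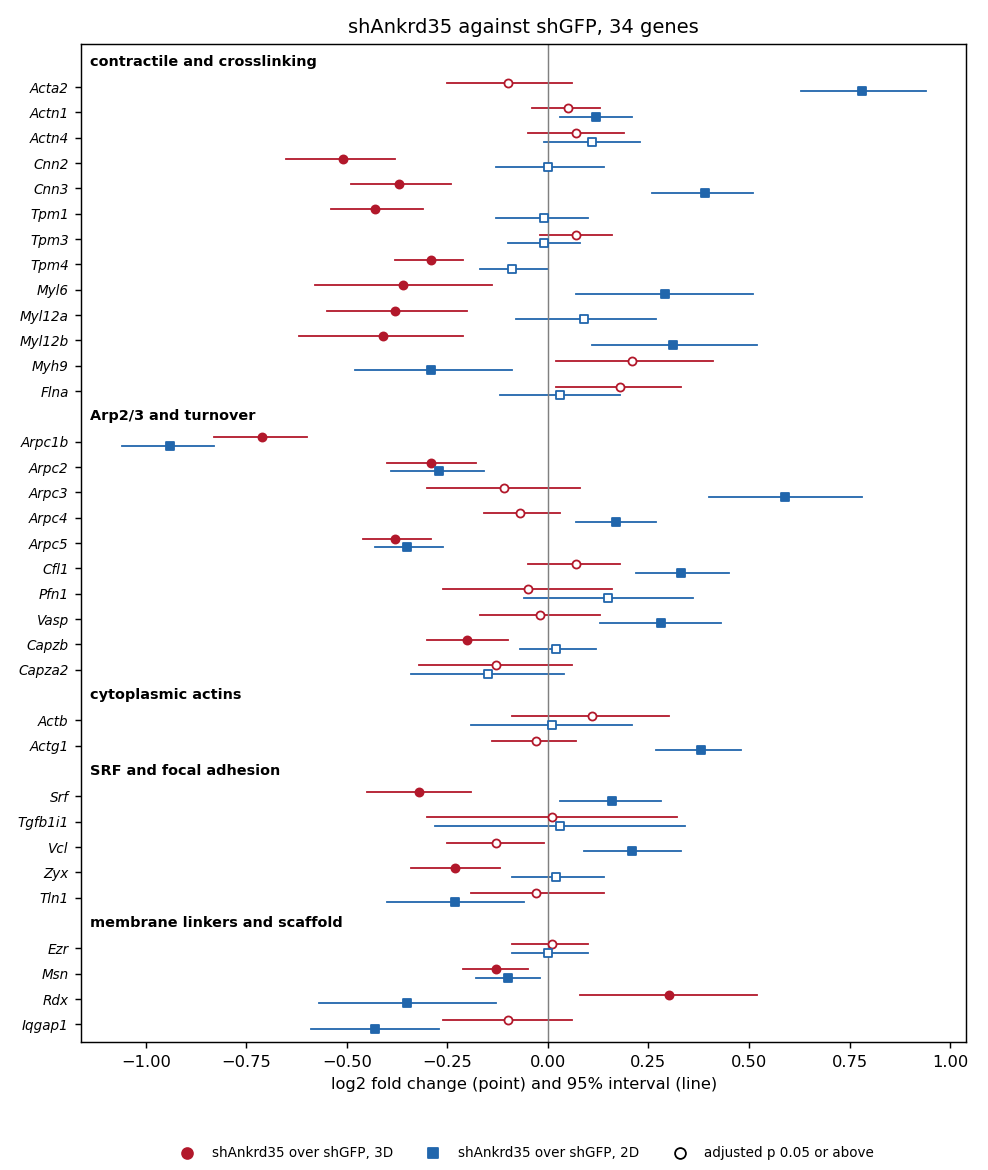
Log2 fold change of each of the 34 genes with shAnkrd35 over shGFP, in 3D (circles) and in 2D (squares). Lines are 95% intervals from limma, open symbols have an adjusted p of 0.05 or above, and genes are grouped by role. Arpc1b is the leftmost gene in both growth types, and Acta2, Arpc3 and Cnn3 lie right of 0 in 2D without doing so in 3D.

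Arpc1b (chromosome 5, 145114215 to 145130705, plus strand) encodes one of 2 interchangeable ARPC1 subunits of Arp2/3, the other being encoded by Arpc1a. It had 304, 289, 302 and 270 CPM in 3D shAnkrd35 against 474, 488, 468 and 477 CPM in 3D shGFP. In 2D it had 255, 307, 291 and 282 CPM with shAnkrd35 against 557, 518, 567 and 537 CPM with shGFP. The highest shAnkrd35 library in either growth type lies well below the lowest shGFP library. The log2 fold change was -0.71 (SE 0.05, adjusted p = 4.60e-08) in 3D and -0.94 (SE 0.05, adjusted p = 6.36e-10) in 2D, a fall of 1.64-fold and 1.92-fold. Arpc1a fell by 0.28 on the log2 scale (SE 0.05, adjusted p = 0.000185) in 3D and rose by 0.12 (SE 0.05, adjusted p = 0.0334) in 2D, where the value was -0.03 (adjusted p = 0.597) with the length and GC trend removed. Per kilobase, Arpc1b made up 68.2% ± 1.66 of the sum of the pair in 3D shAnkrd35 against 74.4% ± 0.624 in 3D shGFP, and 65.0% ± 0.579 in 2D shAnkrd35 against 79.5% ± 0.575 in 2D shGFP (mean ± SD, n = 4 each). The exons of Arpc1b overlap those of Pdap1 on the opposite strand over 931 bases, 18.2% of its length, and Pdap1 had log2 fold changes of 0.23 (SE 0.08) in 3D and -0.01 (SE 0.08) in 2D.

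Other Arp2/3 subunits followed it in part. Arpc5 was lower with shAnkrd35 by 1.30-fold in 3D (adjusted p = 2.27e-06) and 1.27-fold in 2D (adjusted p = 2.26e-06), and Arpc2 by 1.22-fold and 1.21-fold, all without overlap between the hairpins. Arpc3 was 1.5-fold higher with shAnkrd35 in 2D (adjusted p = 4.22e-05) and had a log2 fold change of -0.11 (SE 0.09) in 3D. Arpc4 was 1.12-fold higher in 2D (adjusted p = 0.00615), which turned to a log2 fold change of -0.03 with the length and GC trend removed. Capzb was 1.15-fold lower in 3D (adjusted p = 0.00311), and Cfl1 and Vasp were 1.26-fold and 1.22-fold higher in 2D, the second with an adjusted p of up to 0.113 over the alternatives. In all, 4 of the 10 Arp2/3 and turnover genes were lower in 3D with none higher (median -0.12), and 4 were higher and 3 lower in 2D (median 0.09).

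**Figure D5:**
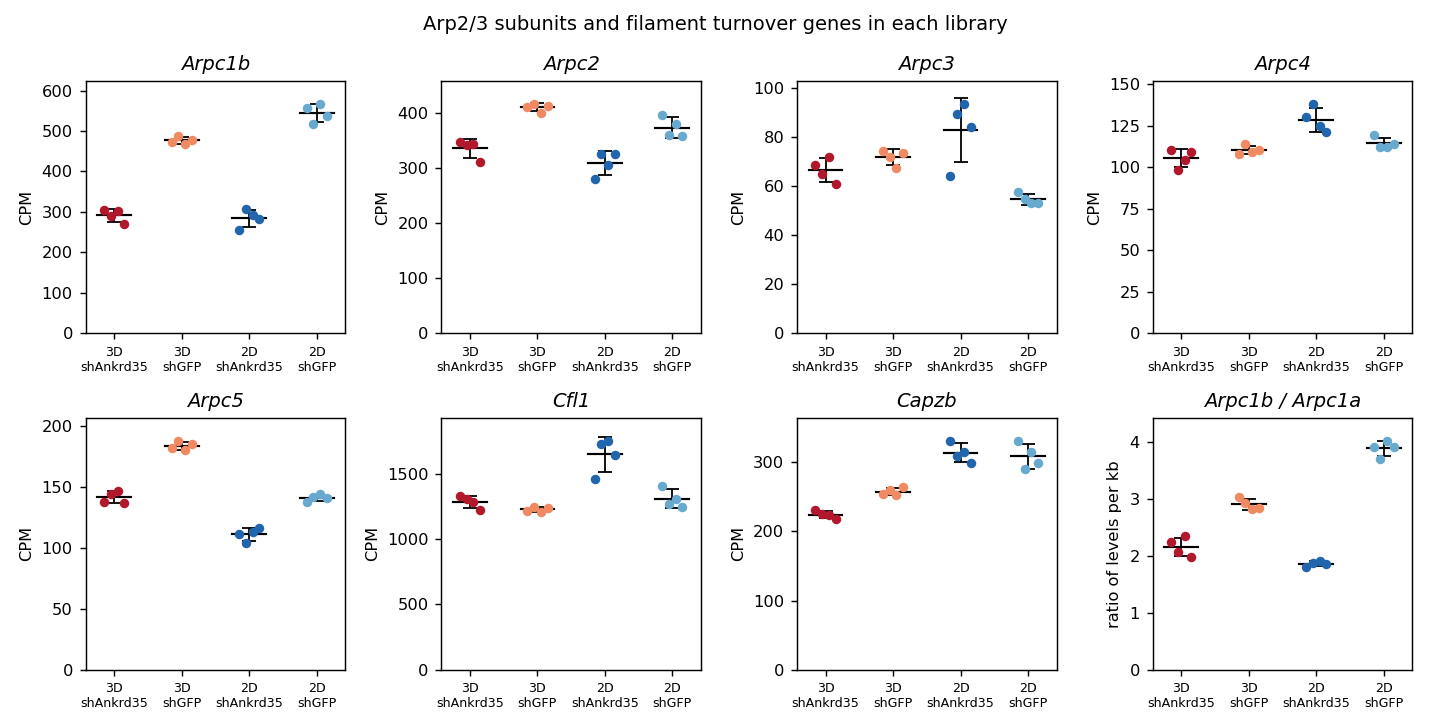
Levels in CPM of 5 Arp2/3 subunits, Cfl1 and Capzb in each library, and the ratio of Arpc1b to Arpc1a per kilobase, with the group mean and SD (n = 4). Arpc1b is lower in every shAnkrd35 library than in any shGFP library, and its ratio to Arpc1a averages 2.15 in 3D shAnkrd35, 2.90 in 3D shGFP, 1.86 in 2D shAnkrd35 and 3.88 in 2D shGFP.

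Among the contractile and crosslinking genes, 7 of 13 were lower with shAnkrd35 in 3D and none was higher (median -0.29). Cnn2 had the largest of these falls, 1.43-fold (log2 fold change -0.51, SE 0.06, adjusted p = 1.23e-05), followed by Tpm1 with 1.34-fold (adjusted p = 2.23e-05), Myl12b with 1.33-fold (adjusted p = 0.00409), Myl12a with 1.30-fold, Cnn3 with 1.29-fold, Myl6 with 1.28-fold and Tpm4 with 1.22-fold. The hairpins do not overlap in any of these 7 genes in 3D. Myh9 and Flna had log2 fold changes of 0.21 (SE 0.09, adjusted p = 0.0935) and 0.18 (SE 0.07, adjusted p = 0.0759) in the other direction, also without overlap. Both passed the threshold as higher without replicate 1 of 2D shAnkrd35 or with the 8 libraries in 3D alone. With the length and GC trend removed their values were 0.07 (adjusted p = 0.45) and 0.08 (adjusted p = 0.264). In 2D, 5 of 13 were higher with shAnkrd35 and 1, Myh9, was lower (median 0.09). Acta2 was 1.72-fold higher (log2 fold change 0.78, SE 0.07, adjusted p = 2.33e-07) and Cnn3 1.31-fold higher (adjusted p = 4.44e-05), while Actn1, Myl6 and Myl12b were 1.09-fold, 1.22-fold and 1.24-fold higher and lost their call with the length and GC trend removed. Myh9 was 1.22-fold lower in 2D (adjusted p = 0.0149), with an adjusted p of up to 0.0626 over the alternatives. Of the smooth muscle markers, Des (desmin) averaged 5.34 CPM in 3D shAnkrd35 against 1.36 CPM in 3D shGFP, and 14.1 CPM in 2D shAnkrd35 against 5.10 CPM in 2D shGFP. Smtn (smoothelin) went the other way, with 41.0 CPM in 3D shAnkrd35 against 56.1 CPM in 3D shGFP, and 59.9 CPM in 2D shAnkrd35 against 66.4 CPM in 2D shGFP, and the part of either in the Acta2 result was not tested.

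Of the remaining genes, Srf was 1.25-fold lower with shAnkrd35 in 3D (adjusted p = 0.000629) and 1.11-fold higher in 2D (adjusted p = 0.0347, lost in 8 of 27 alternatives). Zyx was 1.17-fold lower in 3D (adjusted p = 0.00305). Actg1 was 1.30-fold higher in 2D (adjusted p = 9.77e-06), and Actb was not called in either growth type, with log2 fold changes of 0.11 (95% interval -0.09 to 0.30) in 3D and 0.01 (-0.19 to 0.21) in 2D. Vcl was 1.16-fold higher in 2D and Tln1 1.17-fold lower. Rdx was 1.23-fold higher in 3D (adjusted p = 0.0369), a call lost on leaving out any 3D library, and 1.27-fold lower in 2D (adjusted p = 0.00882). Iqgap1 was 1.35-fold lower in 2D (adjusted p = 0.000151). Msn was 1.1-fold lower in 3D and 1.07-fold lower in 2D, and its 2D call was lost with the length and GC trend removed.

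The hairpin effect in 3D less that in 2D, which is the same contrast as the difference between the growth effects of shAnkrd35 and shGFP, was negative and past the threshold in 17 of the 34 genes and positive in 4, where 18.6% of all genes were negative, 17.1% positive and 35.8% called either way. The median was -0.20 against 0.00 for all genes. The most negative were Acta2 (-0.88, SE 0.10, adjusted p = 1.56e-05), Cnn3 (-0.76, SE 0.08, adjusted p = 7.46e-06), Myl12b (-0.72, SE 0.14, adjusted p = 0.001) and Arpc3 (-0.70, SE 0.13, adjusted p = 0.000667), all on the log2 scale. In Acta2 the difference came with hairpin values that part in 2D and overlap at a low level in 3D, whereas in Cnn2 (-0.52, SE 0.09) it came with values that part in 3D and overlap in 2D. The positive ones were Rdx (0.65, SE 0.15, adjusted p = 0.00354), Myh9 (0.50, SE 0.13, adjusted p = 0.00864), Iqgap1 (0.33, SE 0.11, adjusted p = 0.0252) and Arpc1b (0.23, SE 0.08, adjusted p = 0.0290), and the calls of Iqgap1 and Arpc1b were lost in 8 and 5 of 26 alternatives. By role, 8 of 13 contractile and crosslinking genes were negative and 1 positive (median -0.41), and 5 of 10 Arp2/3 and turnover genes were negative and 1 positive (median -0.21). With the length and GC trend removed, 7 contractile and crosslinking genes were negative and 1 positive (median -0.35). In that setting 3 Arp2/3 and turnover genes were negative and 1 positive (median -0.08).

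Beyond the 34 genes, 86 other genes of the actin system were tested from a list of 95 symbols that covers SRF cofactors and targets, myosins and adhesion, and Arp2/3, nucleation and turnover. In 3D over 2D, 20 were higher and 44 lower with shAnkrd35 (median -0.12), where 34.4% of all genes were higher and 36.0% lower. With shGFP, 23 were higher and 35 lower (median -0.06), where 35.2% of all genes were higher and 32.1% lower. Mkl1, the gene of MRTF-A, fell by 0.45 on the log2 scale (SE 0.06, adjusted p = 2.52e-06) with shAnkrd35 and by 0.36 (SE 0.06, adjusted p = 2.61e-05) with shGFP, and Mkl2, the gene of MRTF-B, was not called. Flnc, the muscle filamin, had the largest fall of these genes with both hairpins, to 7.43 ± 0.808 CPM in 3D shAnkrd35 against 41.4 ± 7.78 CPM in 2D shAnkrd35, and to 3.77 ± 0.313 CPM in 3D shGFP against 28.2 ± 2.36 CPM in 2D shGFP (mean ± SD, n = 4 each). Arhgef2 (-1.32), the gene of a guanine nucleotide exchange factor, and the bundling protein fascin, Fscn1 (-1.06), followed with shGFP, and the LIM-domain gene Csrp1 (-0.95) and the GTPase gene Rhob (-0.93) with shAnkrd35. Lima1, which encodes the filament stabiliser EPLIN, rose by 0.70 and 1.25 with shAnkrd35 and shGFP. The other genes with the smallest p among those higher were Myo6 (1.12), a myosin that walks towards minus ends, and Ppp1r12a (1.13), a myosin phosphatase subunit, with shAnkrd35, and the formin gene Daam1 (1.17) and Slc9a3r1 (0.43), a partner of ERM proteins, with shGFP. Ppp1r12a is 39.9% GC and its value was 0.19 with the length and GC trend removed.

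With shAnkrd35 over shGFP, 14 of the 86 were higher and 19 lower in 3D, where 15.0% of all genes were higher and 14.6% lower, and 27 were higher and 33 lower in 2D, where the shares of all genes were 29.0% and 28.8%. In 3D the genes with the smallest p were Flnc (0.96), the formin gene Fmnl2 (0.62) and the adhesion gene Tns1 (0.39) among those higher, and Mylk (-0.44), the gene of myosin light chain kinase, Slc9a3r1 (-0.41) and Fscn1 (-0.43) among those lower. In 2D they were Lima1 (0.69), Iqgap3 (0.68) and Wdr1 (0.46), a cofactor of cofilin, among those higher, and Arhgef2 (-0.63), Arpc5l (-0.53), a paralogue of Arpc5, and Fscn1 (-0.71) among those lower. The core subunit gene Actr2 (Arp2) had -0.92 (SE 0.15, adjusted p = 0.000181) in 2D and -0.07 (SE 0.15) in 3D, and Actr3 (Arp3) had 0.00 (SE 0.05) in 2D and 0.21 (SE 0.05, adjusted p = 0.00320) in 3D. The difference of the hairpin effects was called positive in 25 of the 86 and negative in 23, where 17.1% of all genes were positive and 18.6% negative, with Arhgef2 (0.67), the cytolinker gene Plec (0.69) and Fmnl2 (0.66) foremost among the positive, and Slc9a3r1 (-0.84), Lima1 (-0.55) and Iqgap3 (-0.49) among the negative. All these values are log2 fold changes or, in the last case, differences of them.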

How the data were processed

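RNA of LKR10 cells was sequenced in 4 libraries for each of 4 groups. The deposited table holds log2 expression values of 12321 genes, the authors' log2 CPM on effective library sizes with a prior averaging 2 reads, a scale worked out from the values. Reads were trimmed with Trimmomatic 0.38 and aligned with STAR 2.5.1b to mm10, and edgeR was used, per the submitters' processing notes. For the counting program, its annotation, its use of strand and any filter by the authors, the entry is not given in the sources used here.

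Every value returned to a whole number of reads within 0.01, and these reads gave the CPM values printed. Gene names in which hyphens and other characters had been turned into dots, as R does with names, were restored for 386 symbols. In all, 12218 symbols matched the GENCODE M21 annotation of mm10 while 103 did not. No column belonged to a sample outside the series. Genes at 1 CPM or more in at least 4 libraries were kept, which left 12320.

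The deposited log2 values were fitted with limma 3.58.1 (statmod 1.5.0) in R 4.3.3 as 1 mean per group over all 16 libraries, with a trend of the variance on the mean and robust moderation. The 5 contrasts were 3D over 2D with each hairpin, shAnkrd35 over shGFP in each growth type, and the difference of the hairpin effects. P-values were adjusted over all genes tested by the Benjamini-Hochberg method, with a threshold of 0.05, and every adjusted p printed is from this limma fit or the alternative named beside it. The fit was tested on simulated data. Values per kilobase divide CPM by the length of the merged exons. Promoters are RefSeq sequences of GRCm38.p6.

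Values in every library are printed for Srf, Acta2, Actb, Actg1 and, in each contrast and direction, the 4 members with the largest absolute log2 fold change among those called. Of the other actin genes, up to 3 each way per contrast with the smallest p are named. Mkl1, Mkl2, Arpc1a, Actr2, Actr3 and Des were named outside this rule, with their values known. The members and lists were chosen with earlier results of these data known. Alternatives covered the libraries entering the fit, a replicate block, the scaling, the filter, the prior, a correction for transcript length and GC content and the leaving out of each library. A limma-voom fit of the recovered reads was added after seeing the data.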

Additional observations from a re-analysis of the deposited data

Results flagged for a closer look

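Within the 136 sets of 4 libraries formed by 34 genes and 4 groups, 11 held 1 library far from the other 3 by Dixon's 95% criterion, where chance alone flags about 1 in 20 sets. Of these, 4 concern replicate 1 of 2D shAnkrd35, which was the lowest of its group in Tpm1 at 770 CPM, in Myl12a at 291 CPM and in Pfn1 at 799 CPM, and the highest in Iqgap1 at 1126 CPM. In the same group Cnn3 was highest in replicate 3 at 49.1 CPM and Tpm3 lowest in replicate 4 at 617 CPM. In 3D shAnkrd35, Tpm3 was highest in replicate 1 at 547 CPM, Ezr highest in replicate 3 at 605 CPM and Arpc2 lowest in replicate 4 at 311 CPM. In 3D shGFP, Vcl was lowest in replicate 2 at 271 CPM and Rdx highest in replicate 4 at 290 CPM.

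The effect of shAnkrd35 over shGFP differed between 3D and 2D, by the test of the difference itself, in 21 of the 34 genes. Among contractile and crosslinking genes the log2 difference was -0.88 in Acta2, -0.76 in Cnn3, -0.72 in Myl12b, -0.65 in Myl6, -0.52 in Cnn2, -0.47 in Myl12a, -0.41 in Tpm1 and -0.21 in Tpm4, and 0.50 in Myh9. Among Arp2/3 and turnover genes it was -0.70 in Arpc3, -0.30 in Vasp, -0.27 in Cfl1, -0.23 in Arpc4 and -0.22 in Capzb, and 0.23 in Arpc1b. It was -0.48 in Srf, -0.41 in Actg1, -0.34 in Vcl and -0.25 in Zyx. It was 0.65 in Rdx and 0.33 in Iqgap1. With the length and GC trend removed, limma no longer called the difference in some of these genes. They were Tpm4 (-0.11, adjusted p = 0.142), Cfl1 (-0.12, adjusted p = 0.0856), Arpc4 (-0.05, adjusted p = 0.603), Capzb (-0.10, adjusted p = 0.183) and Iqgap1 (0.06, adjusted p = 0.53).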

How the results depend on the processing

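A call was taken to hold where it stayed on its side of the threshold. Its sign was compared only for genes called in the main fit, in the alternative or in both. Of the 170 calls formed by 34 genes and 5 contrasts, all held without the filter, with a prior of 0.5 reads and with limma-voom on the recovered reads. So did all 165 that could be made with a mean of at least 5 CPM, which drops Tgfb1i1. The number was 165 with median-of-ratios size factors, 156 with plain library totals, 138 with the length and GC trend removed, 159 to 167 on leaving out 1 library, and 124 of 136 with only the 8 libraries of a comparison. The edgeR quasi-likelihood and DESeq2 fits were not run, since the deposited unit is log2. Of 24 same-numbered pairs of libraries, 8 correlated over 0.1 (r of -0.483 to 0.206, median -0.0138). All 4 pairs did so between 2D shGFP and 3D shAnkrd35, which are not compared with each other, and between groups that are, never did all 4, so the numbers were not taken as pairs. Of 72 pairs with different numbers, 14 correlated over 0.1. The highest r, 0.555, was between replicate 1 of 2D shGFP and replicate 2 of 2D shAnkrd35. With the replicate block, 165 of 170 calls held, and 0 genes were higher with shAnkrd35 in 3D.

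Among genes called in at least 1 of both fits, the log2 fold change changed sign with the length and GC trend removed for shAnkrd35 over shGFP in 2D in Cnn2 (-0.19), Arpc4 (-0.03), Capza2 (0.51) and Ezr (-0.13), for 3D over 2D with shGFP in Arpc2 (-0.01), Capza2 (-0.50) and Srf (0.10), for 3D over 2D with shAnkrd35 in Capza2 (-1.05) and Ezr (0.13), and for the difference in Capza2 (-0.55). With the replicate block added the same held, but for Cnn2, and Capzb was at -0.10 in 2D. In both settings 7 genes were higher with shAnkrd35 in 2D, with medians of -0.02 over the 34 genes, 0.03 over the contractile genes and -0.04 over the Arp2/3 genes, and the contractile median was -0.22 in 3D. For 3D over 2D the medians were -0.31 (contractile) and -0.03 (Arp2/3) with shGFP, and -0.34 (all), -0.49 and -0.09 with shAnkrd35. For the difference they were -0.09, -0.35 and -0.08. With the block, 3 genes rose with shGFP.

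With plain totals, 8 genes were higher in 3D with shGFP, with medians of -0.09 (all), -0.22 (contractile) and 0.16 (Arp2/3). With shAnkrd35 the medians were -0.33, -0.51 and -0.12, and for the difference -0.23 (all) and -0.44 (contractile). With median-of-ratios factors, 3 genes rose with shGFP. With only 8 libraries, 4 genes were lower with shAnkrd35 in 2D and 3 were higher in 3D. Without both 2D libraries numbered 1, the 2D median was 0.06, 3 genes were higher in 3D, the contractile median was -0.55 for growth with shAnkrd35 and -0.48 for the difference, and 3358 of all genes were called with a positive difference, against 2110 with all libraries.

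On leaving out each library in turn, the median of the hairpin effect in 2D ran from -0.01 to 0.06 over all 34 genes and from 0.05 to 0.11 over contractile genes. Genes higher with shAnkrd35 in 3D numbered 0 to 3, and genes higher in 3D with shGFP 3 to 7. The contractile median in 3D with shAnkrd35 ran from -0.61 to -0.55. The difference was positive in 2 to 6 genes, with medians of -0.23 to -0.17 (all) and -0.47 to -0.38 (contractile). The causes were not tested. The part of depth was not tested either, and the lowest count of these genes was 36 reads, in Tgfb1i1.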
